A study of Homo sapiens with 6 samples.

Results

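The MYC and PVT1 locus of K562 cells was described through the active promoters and enhancers called across a 3.5 Mb window of human chromosome 8. The window ran from 1235 kb before the MYC start to 2265 kb after it, on build GRCh38, and every peak that touched it was taken. A peak was assigned to the start of MYC or PVT1 when one of the gene's transcripts began no more than 500 bp from it. The peaks that touched the window, near a start or not, numbered 106 of 78446 on chromosomes 1 to 22 and X. Joined wherever peaks of different lists overlapped by at least 1 bp, they formed 47 regions of 34308. K562 is an established, untreated human leukaemia line, called lymphoblastoid in the labels, and marker genes of its cell type are not reported here. The data were run-on libraries, in which RNA polymerases caught on DNA add biotin-tagged nucleotides to the RNA they are making, and 3 peak lists made from them with dREG, a classifier that finds sites of initiation from run-on reads on both strands. The groups, of 2 biological replicates each, were PRO-seq 1M, made with the published protocol from 1M cells, and 2 groups made with a quicker protocol, qPRO-seq 1M from as many cells and qPRO-seq 250k from 250k cells. Each group had 1 list for both replicates, so the replicate error of every value below is unknown, and no test was made.

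MYC encodes a transcription factor that binds DNA as a dimer with MAX and drives growth and division. Its transcription is known to depend, in a manner that differs between tissues, on enhancers scattered over a wide gene-poor stretch on both sides of the gene. PVT1, the long noncoding RNA gene downstream of MYC on the same strand, holds several such enhancers in its introns, and its promoter is known to compete with that of MYC for them. In K562 cells, enhancers of MYC have been mapped by others both near PVT1 and far downstream of it.

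Of the 106 peaks, 31 came from PRO-seq 1M, 57 from qPRO-seq 1M and 18 from qPRO-seq 250k. They covered 14.2 kb, 23.5 kb and 8.73 kb. The window is 2.42% of the span of chromosome 8 between its first and last peak, and it held 3.55%, 3.93% and 3.15% of that chromosome's peaks in the same order. Its density of 8.86, 16.3 and 5.14 peaks per Mb stood beside 8.39, 13.0 and 5.29 over all the chromosomes used. The order of the lists followed their lengths: with each list reduced to its 15562 top-scored peaks, the window held 14, 19 and 18. Read depth is unknown, so a list with more peaks cannot be told apart from a deeper library.

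The elements clustered along the window. A stretch of 811 kb, from 117 kb upstream of the MYC start to 693.6 kb downstream of it, held 28 of the 47 regions. A second stretch of 137 kb, from 1821 kb to 1958 kb downstream, held 10 more. Between them lay 1128 kb with no peak in any list, from 128429001 to 129556670, although most of that interval is covered by CCDC26, a long noncoding RNA gene of 1050 kb. Upstream of MYC, gaps of 432.1 kb and 420.4 kb without a peak covered POU5F1B, CASC8, CCAT2 and PRNCR1. Gaps of at least 1128 kb numbered 364 of 34285 over all chromosomes and 23 on chromosome 8. The limits of both stretches were drawn after the positions were seen.

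**Figure D1:**
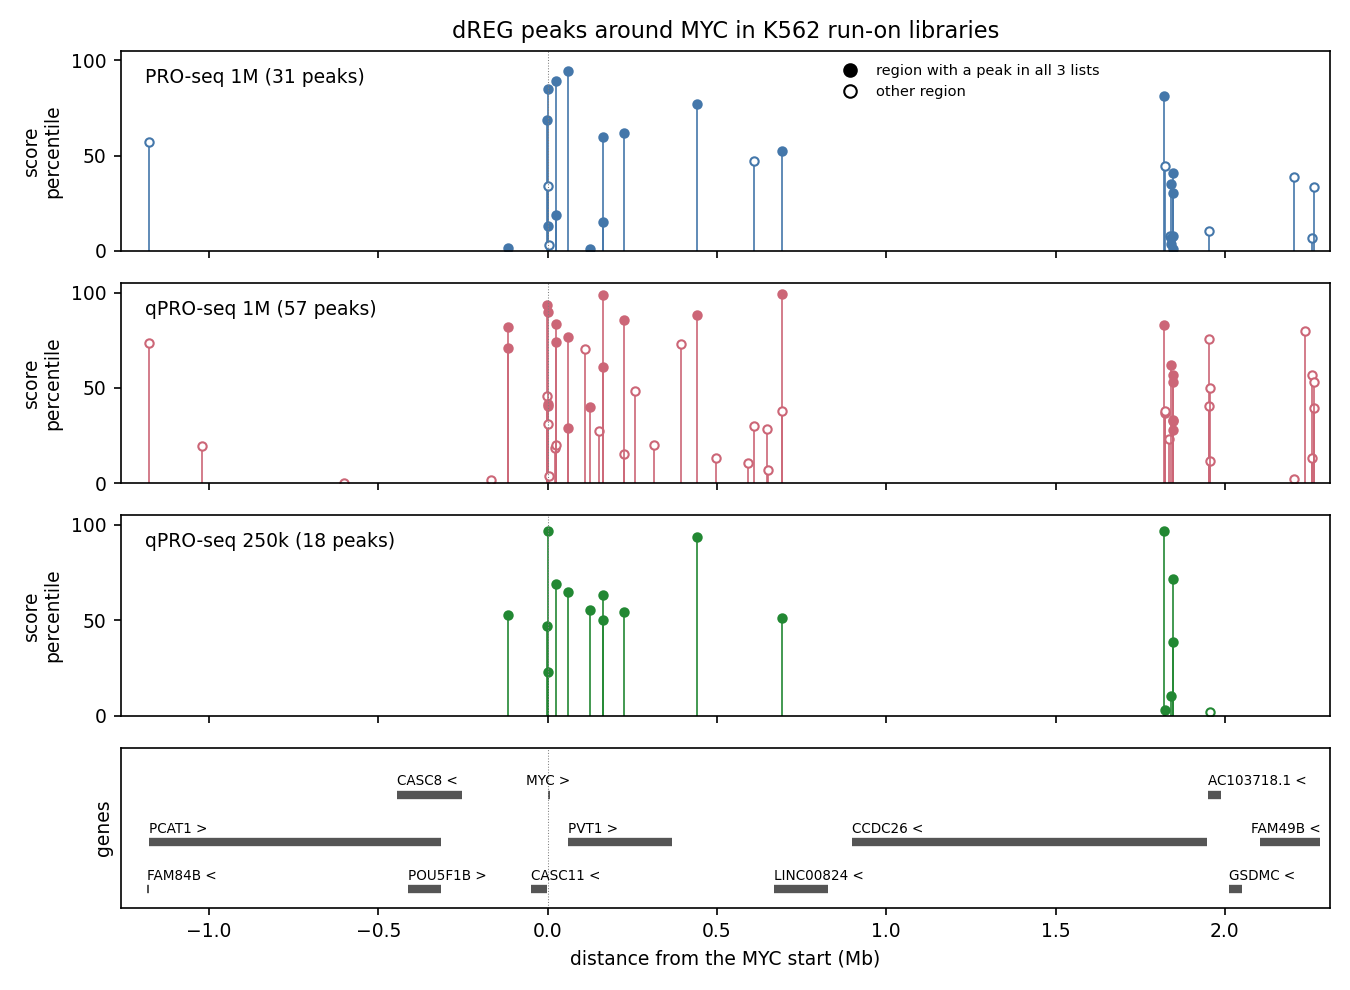
Map of the dREG peaks around MYC, with distance of the peak centre from the MYC start in Mb on the horizontal axis and, for each list, the percentile of the peak among the scores of its own list on the vertical axis. Filled points belong to the 15 regions with a peak in all 3 lists, open points to the other regions, and grey bars are annotated genes with their strand as an arrowhead; the stretch of 1128 kb before the CCDC26 cluster is empty in all 3 panels.

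The MYC start was occupied in every list by a pair of neighbouring regions. MYC (ENSG00000136997.17, chromosome 8, 127735434 to 127741434, plus strand) has 9 annotated transcripts that begin at 9 positions spread over its first part, from 127735434 to 127736594. The first region, at 127735091 to 127735610, lay on the annotated gene start. The second, at 127735631 to 127736600, covered the later starts, most of which fall between 127736046 and 127736231.

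Scores are compared here as percentiles, the percentage of peaks of the same list with a lower score. The gene-start peak of MYC was modest, at percentile 13.2 in PRO-seq 1M, 41.7 in qPRO-seq 1M and 22.6 in qPRO-seq 250k. The peak over the later starts ranked far above it, at percentile 84.8, 89.7 and 97.0. In every list, then, the higher-scored element of the MYC promoter was the downstream one, centred 686 bp, 776 bp and 766 bp after the annotated gene start. In qPRO-seq 1M the same region was split into 2 peaks, with the smaller one at percentile 40.7.

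Start peaks of any protein-coding gene gave the scale for these values. Of 19864 such genes, 43.1% were called at a start by every list. Among genes with a start peak, the median of the top percentile was 76.4 in PRO-seq 1M, 80.7 in qPRO-seq 1M and 68.2 in qPRO-seq 250k. MYC stood above 65.7%, 71.0% and 94.8% of them. MYC had 2, 3 and 2 start peaks, against medians of 1, 2 and 1.

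PVT1 (ENSG00000249859.9, chromosome 8, 127794533 to 128101253, plus strand) starts 59.1 kb downstream of the MYC start and is 307 kb long. Its 25 annotated transcripts begin at 23 positions, and 4 of these, the cluster from 127794533 to 127794575, had a peak within 500 bp in each list. The other 19 had none in any list, so every PVT1 start peak belonged to the first promoter. The top peak there covered 127794231 to 127794820 in PRO-seq 1M. The quick protocol gave 127794291 to 127794780 from 1M cells and 127794331 to 127794810 from 250k cells. The deposited centres were 27 bp after, 13 bp before and 13 bp before the gene start.

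The order of the MYC and PVT1 promoters differed between lists and, in 1 of them, with the transcript starts counted. In PRO-seq 1M the PVT1 start scored higher than MYC, 1.1 against 0.971, or percentile 94.5 against 84.8. In qPRO-seq 1M MYC scored higher, 0.97 against 0.794, at percentile 89.7 against 76.5. This order turned when only the annotated gene start of MYC was counted, where MYC stood at 41.7 and PVT1 at 76.5, as the peak over the later starts lay outside the 500 bp. In the other lists the values were the same under that rule. In qPRO-seq 250k the distance was widest, 1.02 for MYC against 0.661 for PVT1, at percentile 97.0 against 64.9. The differences amounted to 9.7 percentile points in favour of PVT1 in the first list and to 13.2 and 32.1 points in favour of MYC in the quick lists. Whether the order would hold in a repeat of either protocol was not tested, because no list per replicate was analysed here.

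**Figure D2:**
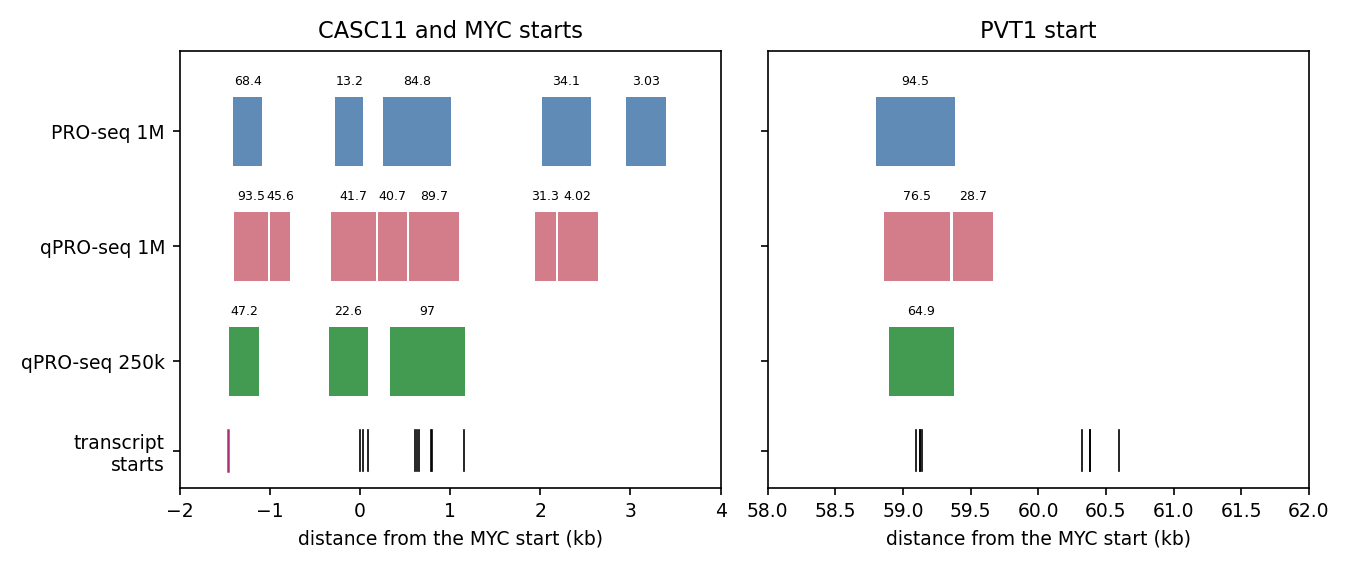
Peaks at the CASC11 and MYC starts (left) and at the PVT1 start (right), with distance from the MYC start in kb on the horizontal axis and 1 row per list. Boxes are peaks as deposited with their score percentile above them, black ticks are annotated starts of MYC or PVT1 and the purple tick is the gene start of CASC11; the highest percentile at MYC, 84.8, 89.7 or 97.0, belongs to the box over the later starts.

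The peaks nearest to but outside the 500 bp limit lay on both sides of the MYC starts. On the upstream side the region at 127733981 to 127734420 was within 500 bp of the start of CASC11, a long noncoding RNA gene that runs away from MYC on the minus strand. It had a peak in all 3 lists, at percentile 68.4 in PRO-seq 1M and 93.5 and 47.2 in the quick lists from 1M and 250k cells. In qPRO-seq 1M this peak scored above every MYC start peak of that list. A neighbouring region, 774 bp from the first MYC start, was called in qPRO-seq 1M alone at percentile 45.6. Inside MYC, the region at 127737371 to 127738070 was intronic and present in both 1M lists, with its nearest peak 857 bp from a MYC start in PRO-seq 1M and 777 bp in qPRO-seq 1M. The exonic region at 127738381 to 127738830 was called in PRO-seq 1M alone, at percentile 3.03.

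Between MYC and PVT1 there was 1 element that all lists shared. The intergenic region at 127760501 to 127761190, 25.41 kb downstream of the MYC start, stood at percentile 89.1 in PRO-seq 1M, 83.7 in qPRO-seq 1M and 69.2 in qPRO-seq 250k. It lay over 23 kb from any annotated transcript start. In PRO-seq 1M its top peak outranked the MYC start, and in both quick lists it outranked the PVT1 start. The other 2 regions of this interval appeared in qPRO-seq 1M alone, at percentile 18.4 and 19.9.

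Within the PVT1 gene, 9 regions were found, made of 5 peaks in PRO-seq 1M, 11 in qPRO-seq 1M and 5 in qPRO-seq 250k. Besides the promoter, 3 of them were shared by all lists. The region at 127898661 to 127899770, in an intron 163.8 kb from the MYC start, held 2 peaks in each list, the higher at percentile 59.8, 99.0 and 63.1. In qPRO-seq 1M this element exceeded both the MYC and the PVT1 start, whereas in the other lists it ranked below MYC. The region at 127960261 to 127960790, 225.1 kb from the MYC start, reached percentile 61.6, 85.7 and 54.2. It overlaps the annotated hairpin of MIR1205, one of the microRNAs embedded in PVT1, and counts as start-near only through that hairpin entry, since the hairpin end is a processing site and no PVT1 transcript starts there. The third, at 127859661 to 127860150 and 124.5 kb from MYC, was near the bottom of the PRO-seq 1M list at percentile 1.17 but stood at 39.9 and 55.3 in the quick lists. The other 5 regions inside PVT1 were called in qPRO-seq 1M alone. The highest of these, at 127845411 to 127845880, was at percentile 70.6.

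Beyond the end of PVT1, the region at 128176571 to 128177490 was shared by all lists and was among the highest-ranked of the window by score. This intergenic element, 441.6 kb from MYC, had percentiles of 77.3, 88.4 and 93.8 in the order used above. An intergenic region 394.7 kb from MYC appeared in qPRO-seq 1M alone, at percentile 73.2. The last shared region of the first stretch, 692.9 kb from MYC at 128427971 to 128428620, was 55 bp from a transcript start of the long noncoding RNA gene LINC00824. This is an internal start, and the annotated gene start of LINC00824, at 128564679, lay in the interval with no peak. The region held the top-ranked peak of the window in qPRO-seq 1M at percentile 99.1, with 52.3 in PRO-seq 1M and 51.4 in qPRO-seq 250k.

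The far cluster lay at the start-proximal end of CCDC26 and in the neighbouring noncoding gene AC103718.1. Its leading element, the intronic region at 129556671 to 129557720, was 1822 kb from the MYC start. It reached percentile 81.0 in PRO-seq 1M, 83.2 in qPRO-seq 1M and 96.6 in qPRO-seq 250k, the last of these just below the 97.0 of MYC. With a mean over the lists of 86.9, it ranked first among the regions that are not MYC or PVT1 starts, followed by those 441.6 kb (86.5), 25.41 kb (80.6) and 163.8 kb (73.9) downstream and the CASC11 start (69.7).

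Around it were 3 more shared regions. One, at 129574781 to 129576080, contained an annotated internal start of CCDC26 and had percentiles of 35.1, 62.2 and 10.2. A pair of intronic regions separated by 20 bp, at 129581511 to 129582930 and 129582951 to 129583880, reached 41.0, 56.7 and 71.5 and then 30.1, 33.0 and 38.5. The annotated gene start of CCDC26 itself, at 129683679, had no peak within 500 bp. The 3 exonic regions in AC103718.1 were each missing from at least 1 list. All 15 regions found in every list lay in the 2 stretches, 11 in the first and 4 in the far cluster.

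**Figure D3:**
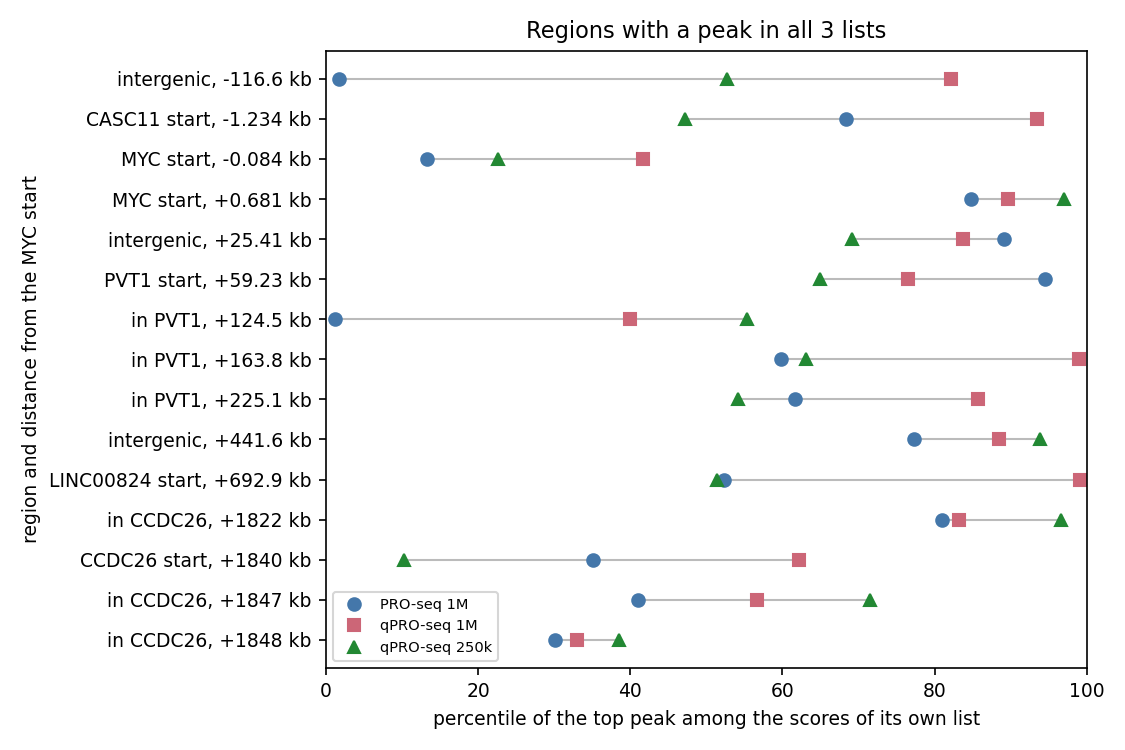
Percentile of the top peak of each of the 15 regions found in all 3 lists, on the horizontal axis, with regions ordered along the chromosome and named by gene and distance from the MYC start. Circles are PRO-seq 1M, squares qPRO-seq 1M and triangles qPRO-seq 250k, and lines join the lowest and highest value; the region 116.6 kb upstream runs from 1.68 to 82.2, while the leading CCDC26 region stays between 81.0 and 96.6.

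Upstream of MYC, shared elements were few. Apart from the CASC11 start, the 1 region in all lists was an intergenic element at 127618391 to 127619360, 116.6 kb before MYC and 114607 bp from the nearest annotated start. It was close to the floor of the PRO-seq 1M list at percentile 1.68, but at 82.2 in qPRO-seq 1M and 52.7 in qPRO-seq 250k. The region farthest upstream, at 126558291 to 126558910, covered the start of FAM84B and was present in both 1M lists, at percentile 57.2 and 73.6. It was also within 500 bp of a PCAT1 transcript start, although the annotated PCAT1 gene start, at 126556323, lies outside it. The 3 regions between these were found in qPRO-seq 1M alone, at percentile 19.5, 0.115 and 1.63. The first of them lay 307 bp from a further PCAT1 transcript start.

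At the downstream edge, 5 regions lay in FAM49B, a protein-coding gene whose annotated 5′ end is outside the window. None of them had a qPRO-seq 250k peak. The region at 129971461 to 129972010, 471 bp from an annotated FAM49B start, was the top-ranked of the 21 window peaks that no other list overlapped in qPRO-seq 1M, at percentile 79.9. PRO-seq 1M had 2 such peaks, the higher at percentile 7.8, and qPRO-seq 250k had none. Regions in a single list made up 44.7% (qPRO-seq 1M), 4.26% (PRO-seq 1M) and 0.0% (qPRO-seq 250k) of the window regions. Over all regions the shares were 37.0%, 6.14% and 1.04%. In both 1M lists the last region crossed the window edge, with its centre outside, and the next peaks beyond the edge began 15.1 kb to 15.6 kb further on.

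Most window peaks lay away from annotated starts. The share over 500 bp from any start was 64.5% in PRO-seq 1M (20 of 31, Wilson 95% interval 46.9 to 78.9), 71.9% in qPRO-seq 1M (41 of 57, 59.2 to 81.9) and 61.1% in qPRO-seq 250k (11 of 18, 38.6 to 79.7). Over the whole lists the shares were 31.9%, 45.8% and 26.5%, each below the interval of the window. On chromosome 8 as a whole they were 32.7%, 49.1% and 27.3%. The intervals cover counting error only, and neighbouring peaks are not independent. MicroRNA hairpin entries count as starts in all these shares, also in those of the whole lists. Of the 45 annotated genes that touch the window, 12 had a start peak in at least 1 list, beside 26.0% of all 58121 annotated genes. These were 3 of 5 protein-coding genes, beside 56.5%, and 9 of 40 others, beside 10.2%. The 9 are annotation entries rather than separate promoters. They include the hairpin entries MIR1205 and MIR1207. RF02164, AC022973.2 and PCAT1 had start peaks that also count for PVT1, FAM49B and FAM84B. PCAT1 had in addition a start peak of its own in qPRO-seq 1M, at percentile 19.5. GSDMC and POU5F1B, both protein-coding, had none.

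Sharing between lists was close to that of the genome. Of the PRO-seq 1M window peaks, 29 of 31 (93.5%, 79.3 to 98.2) had a qPRO-seq 1M counterpart, against 90.6% of all PRO-seq 1M peaks. In the other direction 33 of 57 (57.9%, 45.0 to 69.8) were, against 63.3%. Of the qPRO-seq 250k peaks, 17 of 18 (94.4%, 74.2 to 99.0) were overlapped by qPRO-seq 1M, against 96.6%, and 17 of 18 by PRO-seq 1M, against 91.2%. The 250k list in turn overlapped 18 of 31 PRO-seq 1M peaks (58.1%, 40.8 to 73.6), against 60.2%, and 22 of 57 qPRO-seq 1M peaks (38.6%, 27.1 to 51.6), against 44.1%. Each genome value fell inside the interval of the window, also with peaks near and away from starts taken apart. The window holds more peaks away from starts than the whole lists do. Of those in qPRO-seq 1M, 53.7% were overlapped by PRO-seq 1M, against 42.4%. Near starts the shares were 68.8% against 81.1%. At equal list sizes, 71.4% of PRO-seq 1M and 72.2% of qPRO-seq 250k window peaks were overlapped by qPRO-seq 1M. Genome shares at that setting are not given here, so these values cannot be set against the genome.

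By region, 15 of 47 (31.9%, 20.4 to 46.2) had a peak in all 3 lists, against 34.5% of all regions. A further 8 were in both 1M lists (17.0%, against 18.3% of all regions), 1 in both quick lists (2.13%, against 2.54%) and 2 in PRO-seq 1M alone (4.26%, against 6.14%). The largest class, 21 regions, was in qPRO-seq 1M alone (44.7%, 31.4 to 58.8), against 37.0%. Among the 33 regions away from starts, 8 (24.2%, 12.8 to 41.0) were in all lists, against 16.2%. Among the 14 start-near regions 7 were (50.0%, 26.8 to 73.2), against 52.5%. The start-near regions include those near only the MIR1205 or MIR1207 hairpin entry. The window intervals again contained the genome values.

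**Figure D4:**
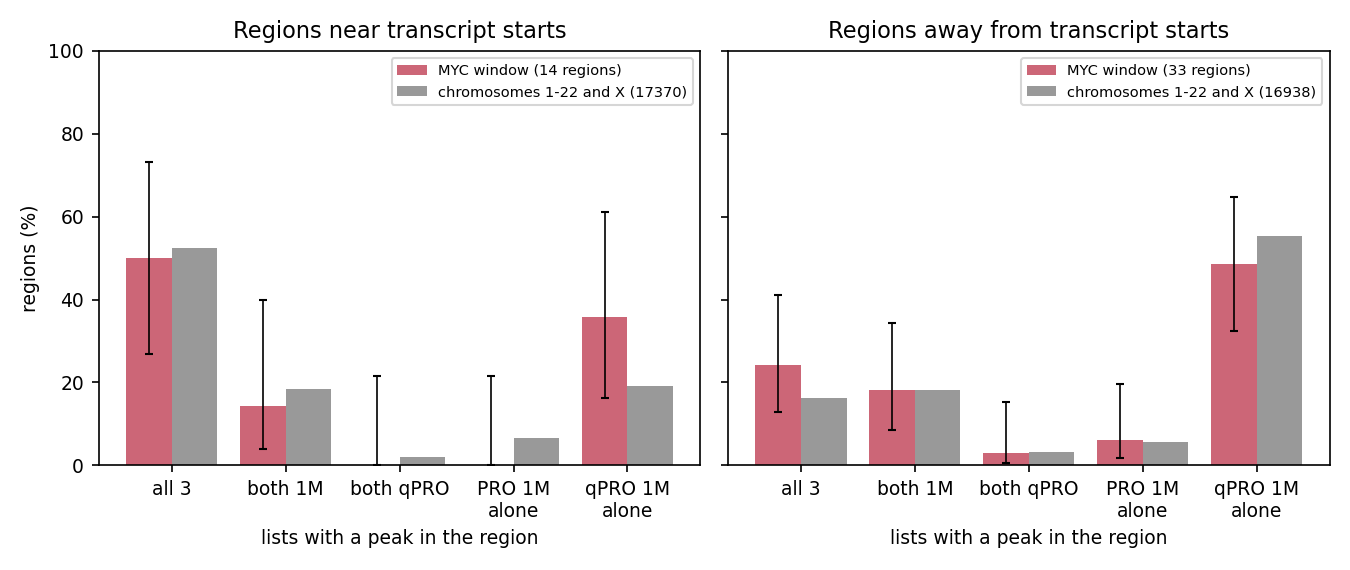
Share of regions in percent, by the lists that had a peak in them, for regions near transcript starts (left) and away from them (right). Red bars are the MYC window with Wilson 95% intervals and grey bars are chromosomes 1 to 22 and X; away from starts, 24.2% of window regions were in all 3 lists beside 16.2% of all such regions, and the interval of the window contains the latter value.

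In both 1M lists the shared regions had a higher median rank than the others of the window. Their median top percentile was 59.8 in PRO-seq 1M, 83.2 in qPRO-seq 1M and 55.3 in qPRO-seq 250k. The 10 other PRO-seq 1M regions had a median of 33.8 and the 30 other qPRO-seq 1M regions one of 30.6. In qPRO-seq 250k there was 1 other region, at percentile 2.05. Over all chromosomes the corresponding medians were 74.0, 82.1 and 59.6 for shared regions and 27.9, 34.0 and 18.9 for the rest. The highest-scored shared region was a different one in each list. It was the PVT1 start in PRO-seq 1M, the internal LINC00824 start in qPRO-seq 1M and the MYC start in qPRO-seq 250k. Where a window peak matched exactly 1 peak of another list, the median distance between their centres was 70 bp for the 1M lists (13 pairs) and 50 bp for each of them against qPRO-seq 250k (13 and 8 pairs). Spearman's correlation of the percentiles over those 13, 13 and 8 pairs was 0.527 between the 1M lists, 0.527 between the published protocol and the 250k list, and -0.0238 between the quick lists, a description over few sites.

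The protein-coding genes whose start peaks had the most similar percentiles to MYC over the 3 lists were AC010197.2 and LDHB, ZNF490 and ZNF791, and NSUN5. The distance from MYC was 1.05 percentile points for the first pair, 1.83 for the second and 2.33 for NSUN5, among 8565 genes compared. The genes of each pair overlap and have identical values. With 3 values per gene, 57 genes lay within 5 points.

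The wider MYC network was taken from a list of 31 genes. A start peak was present for 26 of them (83.9%) in PRO-seq 1M, 26 (83.9%) in qPRO-seq 1M and 24 (77.4%) in qPRO-seq 250k, against 52.9%, 54.5% and 44.0% of protein-coding genes. The list was chosen with earlier results of these data known, so these shares are a description. In the MYC family, MYCL had a start peak in every list, at percentile 95.6, 93.4 and 48.3, and MYCN had none in any.

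Of 10 partners and antagonists, 5 had a start peak in every list, beside 43.1% of protein-coding genes. They were MXD1, MXD4, MXI1, MGA and MLXIPL. MAX, the obligate dimer partner of MYC, was called at its start by both 1M lists, at percentile 73.9 and 65.2, and not by qPRO-seq 250k. MXD1, an antagonist that competes for MAX, stood at 99.1, 96.5 and 84.8. MNT, another MAX-binding repressor, was found in both 1M lists alone, at 51.2 and 66.6, and MXD3 and MLX had no start peak. All 9 genes for cofactors and turnover had a start peak in every list, beside 43.1% of protein-coding genes. They included FBXW7, which marks MYC for degradation, at 90.3, 81.1 and 80.8, and the kinase AURKA at 97.5, 99.7 and 99.1. Of 9 textbook targets, 6 had one in every list, beside the same 43.1%, among them the nucleolar protein gene NCL at 94.5, 97.9 and 94.3, while TERT, the telomerase gene, had none in any.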

How the data were processed

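Peak lists from 6 PRO-seq libraries of K562 cells were analysed, 1 list for each of 3 groups of 2 replicates. Groups were taken from the sample titles. Per the labels, the deposited lists hold dREG peaks. The submitters' processing notes name fastp 0.20.0, Bowtie2 2.3.5.1, deepTools 3.1.3 and UMI-tools, and build GRCh38; the version and thresholds of dREG and the pooling of replicates are not given in the sources used here. Scores were deposited by the authors without a unit and served here only to rank peaks inside a list. Each p-value is likewise the one deposited by the authors, with no statement on adjustment. Start, end and centre positions stand in the other columns, and starts were changed to count from 1.

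Transcript starts came from GENCODE release 29 on GRCh38. Peaks on chromosomes 1 to 22 and X were used. Overlap meant 1 bp or more, a start peak lay within 500 bp of any transcript start of the gene, and distance was taken from the region midpoint to the first MYC start. Shares carry Wilson 95% intervals (scipy 1.17.1, Python 3.11.15), which cover counting error only. The functions for overlap, joining and start distance were tested on simulated intervals. No test between groups was possible with 1 list per group, and the read depth per sample is unknown.

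The members and lists were chosen with earlier results of these data known. Named were MYC, PVT1, window genes with a start peak, the 5 regions of highest mean percentile (a missing list counted as 0), the top unshared peak of each list, the 5 genes most like MYC, and a MYC network list. The window sequence was not analysed here.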

Additional observations from a re-analysis of the deposited data

How the results depend on the processing

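Of 108 alternative values, 94 stayed within 1.5 times the number reported or within the 95% interval of the share or median reported, and 14 moved beyond it. Equal list sizes moved most. They left 14 PRO-seq 1M and 19 qPRO-seq 1M window peaks, beside 18 in qPRO-seq 250k, a list this setting does not shorten. The shares with a counterpart became 71.4% for PRO-seq 1M in qPRO-seq 1M, 73.7% for qPRO-seq 1M in qPRO-seq 250k, and 61.1% (in PRO-seq 1M) or 72.2% (in qPRO-seq 1M) for the 250k list. No genome share at equal list sizes stands beside these shares. Merging of peaks within 500 bp lowered the qPRO-seq 1M window peaks to 37. Rules that are stricter by construction lowered sharing: a reciprocal overlap of 50% gave 77.4% for PRO-seq 1M in qPRO-seq 1M and 42.1% in the other direction, and centres within 100 bp gave 77.4% and 42.1% again, with 24.6% for qPRO-seq 1M in the 250k list. With 1000 bp around starts, MYC had 5 start peaks in qPRO-seq 1M. With the annotated gene start alone, the top MYC percentile in qPRO-seq 1M was 41.7, because the peak over the later starts no longer counts, and PVT1, at 76.5, then ranked above MYC in that list. Taking centres inside the window and peaks away from starts only were alternatives chosen after seeing the data. GC content and motifs were not run. No paired analysis was possible because each list stands for both replicates of its group. The lists hold no read counts, so what depth limits cannot be given.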

Other observations

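A deposited p of exactly 0 was given for 8 of 31 window peaks in PRO-seq 1M, 10 of 57 in qPRO-seq 1M and 2 of 18 in qPRO-seq 250k, beside 19.6%, 21.1% and 12.4% of the whole lists. In PRO-seq 1M the gene-start peak of MYC, at percentile 13.2, was one of them, while the far higher MYC peak at percentile 84.8 was listed at 1e-13. In that list, p does not order the peaks of the MYC promoter as the score does.

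The smallest gap between neighbouring peaks was 20 bp in each list. In qPRO-seq 1M, 32 of the 57 peaks (56.1%) lay that close to another peak of the same list, beside 41.9% of the whole list. In PRO-seq 1M 11 of 31 (35.5%) did, beside 40.6%, and in the 250k list 4 of 18 (22.2%), beside 26.4%. The MYC region over the later starts and the PVT1 start were each 1 peak in the PRO-seq 1M and 250k lists and 2 peaks in qPRO-seq 1M.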
